A study of Mus musculus with 34 samples.

Results

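The nuclear-encoded subunits of the mitochondrial respiratory chain were taken from 2 tables of 3′ end counts, one of mouse hepatocytes and one of mouse liver macrophages. Genes were chosen by symbol alone: every Ndufa, Ndufb, Ndufc, Ndufs and Ndufv gene with a number, Sdha to Sdhd, the Uqcr genes with Cyc1, the Cox4 to Cox8 genes and the Atp5 genes. The rule found 79 of the 24951 genes in the hepatocyte table and 79 of the 26233 genes in the macrophage table, the same 79 in both. By name, 35 belonged to complex I, 4 to complex II, 8 to complex III, 17 to complex IV and 15 to complex V. After genes with too few counts were set aside, 76 of them were tested in hepatocytes and 74 in macrophages. Cox4i2, Cox6a2 and Cox8b were too low for the test in both cell types, and Cox7a1 and Atp5s in macrophages only. Names and present placement part in a few cases: Ndufa4 is now placed in complex IV, Cox7a2l is a supercomplex assembly factor, and Atp5s is not a structural subunit of ATP synthase. Cox6c2, counted here under complex IV, is annotated as a processed pseudogene. Cox6c shares a near-identical stretch with it near the 3′ end, so reads of the 2 may be mixed. Atp5a1, Atp5o, Ndufs3 and Uqcrc1, which the rule would take, were not analysed here.

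The respiratory chain passes electrons from NADH through complex I, or from succinate through complex II, to coenzyme Q, then through complex III and cytochrome c to oxygen at complex IV. Complexes I, III and IV pump protons, and complex V, the ATP synthase, uses the proton gradient to make ATP. Complex II is also an enzyme of the TCA cycle and is the one complex with no mitochondrially encoded subunit. Hepatocytes are rich in mitochondria, and several complex IV subunits exist as paired isoforms of which one is the liver or general form and the other is found mainly in muscle, lung or testis.

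The study set hepatocytes and macrophages of 2 genotypes against each other, each without and with carbon tetrachloride (CCl4), a hepatotoxin that injures hepatocytes around the central vein. All mice were of a mixed B6;129P background, carried floxed alleles of both Yap and Taz (Yap fl/fl Taz fl/fl) and were 7 to 8 weeks old when given tamoxifen, 1.6 mg/kg on each of 5 days, with a pause of 3 weeks before anything else. Knockout mice also carried Opn-iCreERT2, a tamoxifen-dependent recombinase under the osteopontin promoter, and control mice were siblings without it. That promoter is best known in the liver for activity in biliary epithelial cells, so hepatocytes and macrophages of the knockout mice are in the main neighbours of the targeted cells. The CCl4 dose was 1 ml/kg, with harvest after 48 h. Hepatocytes came from a Percoll gradient and a sort for live cells, and macrophages from a sort for F4/80 and CD45. The hepatocyte groups held 6 libraries (control, no CCl4), 5 (knockout, no CCl4), 3 (control, CCl4) and 4 (knockout, CCl4), and each of the 4 macrophage groups held 4.

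Totals ran from 931496 to 7535050 counts in hepatocyte libraries and from 596380 to 5128590 in macrophage libraries. The numbering of the sequencing files falls into 2 series. The first holds 5 hepatocyte libraries (control mice 2, 7 and 8 without CCl4 and 12 and 15 after it) and 2 macrophage libraries (control mice 8 and 11), and no knockout library by group label. For 2 libraries, the hepatocytes of mouse 15 and the macrophages of mouse 11, the group label says control after CCl4 while the free description says knockout. They were kept by group label. The summed level of 12 hepatocyte markers was 69386 to 113548 CPM (counts scaled to a common library total) in hepatocyte libraries and 605 to 36653 CPM in macrophage libraries, and that of 12 Kupffer cell and macrophage markers was 11.3 to 1479 and 7282 to 26620 CPM. Yap1 and Wwtr1, the targeted genes, passed no comparison between genotypes. Yap1 had a mean of 44.1 ± 3.92 CPM (SD, n = 6) in control and 44.7 ± 4.85 CPM (n = 5) in knockout hepatocytes without CCl4, and Wwtr1 of 18.6 ± 4.48 and 27.2 ± 7.66 CPM. After CCl4 the hepatocyte libraries held 44.2 to 53.5 CPM of Yap1 in control and 54.1 to 76.9 CPM in knockout mice, and 23.5 to 28.2 and 17.6 to 33.8 CPM of Wwtr1. In macrophages Yap1 was at 9.56 to 36.9 CPM in control and 13.98 to 32.5 CPM in knockout mice without CCl4, and at 1.82 to 32.2 and 15.2 to 67.6 CPM after it. Wwtr1 was at 5.58 to 41.4 and 11.5 to 40.3 CPM, and at 1.82 to 38.4 and 13.002 to 63.9 CPM. The labels do not name the deleted exons, so a 3′ tag may lie outside them and then checks nothing. Each library of a cell type came from its own mouse, so within a cell type the p-values below measure the spread between mice. In the joint fit of both cell types 15 mice, by the number in the library titles, gave a library of each. Its main version treated those libraries as independent.

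CCl4 lowered subunit genes of all 5 complexes in hepatocytes of control mice and raised 1, Cox6b2. Of the 76 tested, 27 fell and 1 rose at an adjusted p below 0.05 (edgeR's quasi-likelihood test with Benjamini-Hochberg adjustment over 9679 genes), where 27.4% of all tested genes passed in either direction and 13.7% fell. The median log2 fold change was -0.48 over the 76 genes and -0.01 over all tested genes. In 26 genes every library of the 3 mice after CCl4 lay below every library of the 6 mice without it, and in 1 gene above, against 11.7% and 12.05% of all tested genes. The changes were moderate: the 27 lower genes fell by 1.38 to 2.67 times. Without mouse 15, whose labels conflict, 13 fell and 1 rose, and without mouse 16 the calls were 39. In the second file series alone, where 1 treated control library remains, only Cox6b2 passed.

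These values are relative to the bulk of the genes, because TMM factors, which align the middle of each library's gene distribution, set the scale. The factors were 0.771 to 0.912 in control libraries without CCl4 and 1.079 to 1.18 after it. With library totals alone, the median of all tested genes moved to 0.42 and that of the subunit genes to -0.07, and the calls shrank to 2 lower (Sdhb and Ndufa6) and 2 higher genes. As a share of all counts, the 79 genes took 1.10% to 1.56% of control hepatocyte libraries without CCl4 and 1.09% to 1.52% after it, which overlap. On both scales the median of the subunit genes lay below that of all genes. Fewer hepatocytes with full levels and less RNA per cell cannot be told apart in bulk samples.

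**Figure D1:**
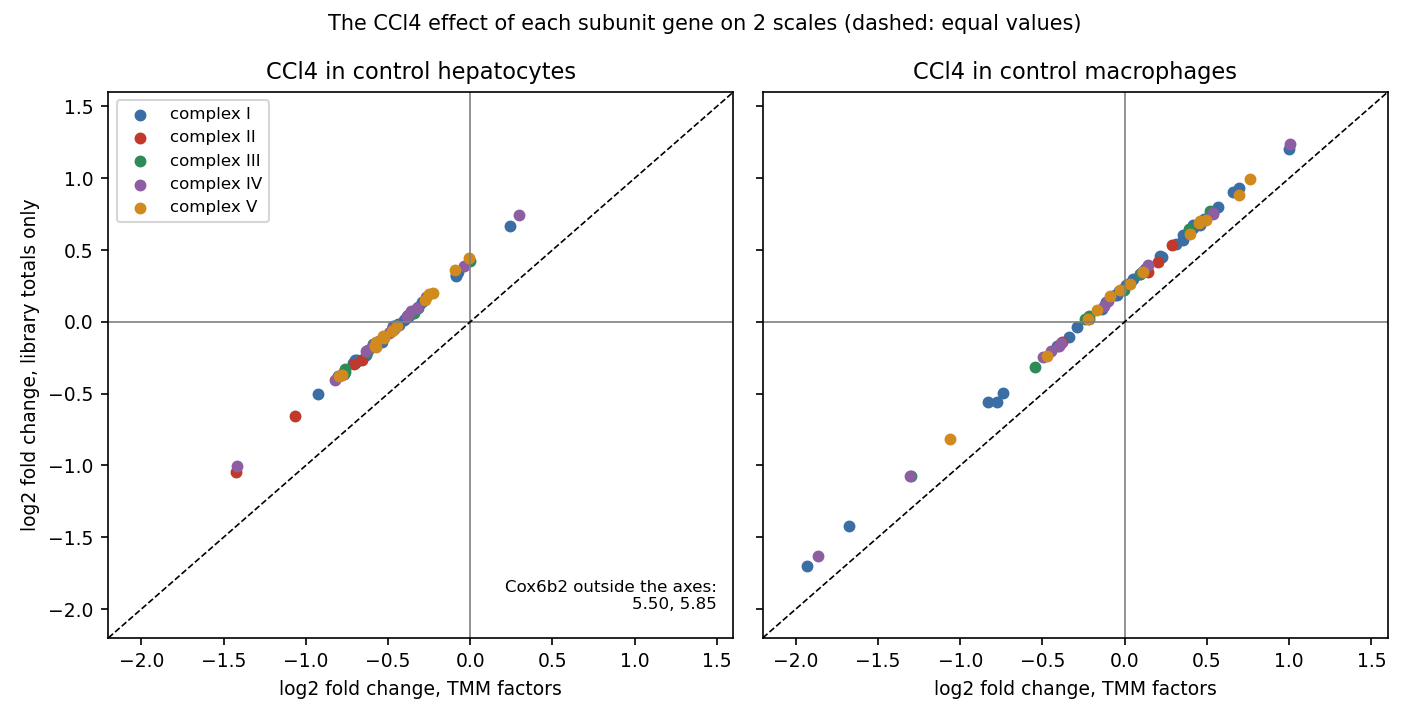
Log2 fold change of each subunit gene after CCl4 in control mice with TMM factors (horizontal axis) and with library totals alone (vertical axis), for 76 genes in hepatocytes and 74 in macrophages, coloured by complex. All points lie above the dashed line of equal values, and the hepatocyte median moves from -0.48 to -0.07.

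Complex II had the lowest median of the 5 complexes, -0.89, against -0.43 to -0.53 in the others, and 3 of its 4 genes fell. Sdhb, the iron-sulfur subunit that hands electrons on from the flavoprotein, had 320.3 to 505 TMM-scaled CPM (median 380.1) in the 6 control mice without CCl4 and 192, 209.5 and 158 CPM in mice 12, 15 and 16 after it. All 3 treated libraries lay below all 6 untreated ones, and the log2 fold change was -1.07 (SE 0.20, adjusted p = 0.000494, edgeR). Sdha, the flavoprotein that oxidises succinate, went from 195 to 276 CPM (median 225) to 129, 128 and 158 CPM, again without overlap (-0.71, SE 0.18, adjusted p = 0.00599, edgeR). Sdhc, one of the 2 membrane anchors, was at 96.7 to 202 CPM before and 114, 56.5 and 78.3 CPM after. Its groups overlapped, and the log2 fold change was -0.66 (SE 0.24, adjusted p = 0.0425, edgeR). Sdhd, the other anchor, had the largest negative estimate of the 4, -1.43, but an SE of 0.80 and an adjusted p of 0.212. Its 3 lowest untreated libraries, 12.1 to 39.1 CPM, were those of the first file series, and the other 3 had 119 to 149 CPM.

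The place of complex II within the chain does not depend on the scaling, since it can be read as a share of the 79 genes' own counts. Its 4 subunits took 4.68% to 5.84% of those counts in the 6 control hepatocyte libraries without CCl4 and 3.42% to 4.39% in the 3 after it. In knockout mice the shares were 4.81% to 5.58% in 5 libraries and 3.31% to 4.11% in 4. Neither pair of groups overlapped, and this held within each file series and without Sdhd. In the first series, control libraries had 4.68% to 5.28% without and 3.95% to 4.39% with CCl4. In the second they had 4.92% to 5.84% and 3.42%, the latter in 1 library. Without Sdhd the shares were 4.30% to 5.21% against 3.06% to 4.14% in control and 4.17% to 4.86% against 3.02% to 4.01% in knockout mice. This share was looked at after the fall of the Sdh genes had been seen and carries no test. In macrophages it did not separate the groups: 3.46% to 4.56% without and 3.75% to 4.69% with CCl4 in control mice, and 4.49% to 5.12% and 4.18% to 5.43% in knockout mice. Complex I took an even part everywhere, with group means of 32.2% to 34.2% in all 8 groups. Other shares also separated knockout groups without and with CCl4. Complex III took 11.63% to 12.28% and 12.33% to 13.09% in hepatocytes. In macrophages complex IV took 23.5% to 28.5% and 21.1% to 23.3%, and complex V 23.6% to 26.7% and 27.1% to 28.4%. In control mice the same shares overlapped.

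**Figure D2:**
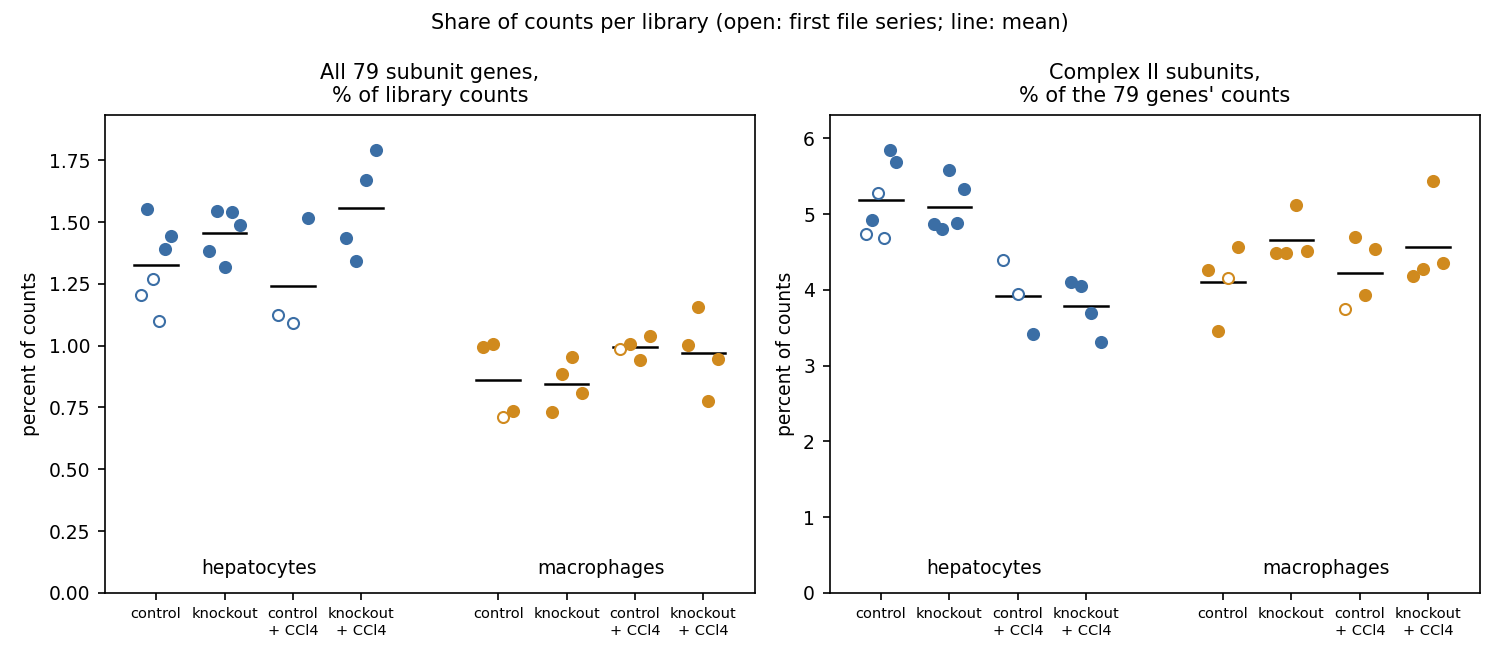
Left, counts of all 79 genes as a percentage of each library's counts, and right, counts of the 4 complex II genes as a percentage of the 79 genes' counts, for each hepatocyte (blue) and macrophage (orange) library by genotype and CCl4, with open points for the first file series and lines for group means. On the right, all 7 hepatocyte libraries after CCl4 sit below all 11 without it, while on the left the hepatocyte groups with and without CCl4 overlap in each genotype.

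Of the 35 complex I genes, 10 fell and none rose. Ndufa6, an accessory subunit of the matrix arm, had 277 to 385 CPM (median 337) without CCl4 and 174, 151 and 208 CPM after it (-0.92, SE 0.17, adjusted p = 0.000304, edgeR). The treated libraries were all below the untreated ones. Ndufb9 and Ndufb10, both of the membrane arm, changed by -0.78 and -0.77 on the log2 scale (SE 0.17 and 0.19), and neither overlapped between groups. The other called genes were Ndufb11, Ndufb5, Ndufa7, Ndufa3, Ndufa13, Ndufa10 and Ndufv2, with falls of 1.38 to 1.71 times. Ndufv2 is one of the core subunits that carry electrons. Of the others, Ndufs1, which carries iron-sulfur clusters, was at -0.32 (adjusted p = 0.147, edgeR) and Ndufv1, which binds NADH, at -0.44 (adjusted p = 0.104, edgeR), and neither passed.

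In complex III, 3 of 8 genes fell. Uqcr11, its smallest subunit, went from 117 to 184 CPM (median 142) to 78.9, 81.9 and 97.1 CPM without overlap (-0.76, SE 0.18, adjusted p = 0.00269, edgeR). Uqcrq fell by 1.54 times, and Uqcrfs1, the Rieske iron-sulfur protein, by 1.54 times with overlapping libraries. Cyc1, cytochrome c1, was at -0.34 with an adjusted p of 0.271 (edgeR). In complex V, 6 of 15 fell. They were Atp5b, Atp5c1, Atp5d and Atp5e, which code for the beta, gamma, delta and epsilon subunits of the catalytic head and its central stalk, together with Atp5h and Atp5k. Atp5b, the catalytic beta subunit, had 676 to 995 CPM (median 782) without CCl4 and 595, 466 and 579 CPM after it (-0.57, SE 0.17, adjusted p = 0.018, edgeR). The 3 genes that code for the same c subunit of the membrane ring, Atp5g1, Atp5g2 and Atp5g3, were at -0.53, -0.09 and -0.23 and none passed.

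Complex IV held the largest fall among the called genes and the single rise. Cox7c, a small membrane subunit, went from 68.9 to 215 CPM (median 102) to 46.0, 24.3 and 68.8 CPM (-1.42, SE 0.42, adjusted p = 0.0162, edgeR). The highest treated library lay just below the lowest untreated one. Cox6c, Cox7b, Cox4i1 and Cox5b also fell, by 1.77, 1.74, 1.51 and 1.41 times. Cox5a, which binds next to the Cox4 subunit, was at -0.27 with an SE of 0.63 and did not pass. Cox7c, Cox6c, Cox5b, Uqcr11, Ndufb11, Atp5c1 and Atp5h, 7 of the 27 lower genes, share a stretch of at least 50 bases at 96% identity or more with another annotated gene near the 3′ end, so part of their reads may be counted elsewhere.

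**Figure D3:**
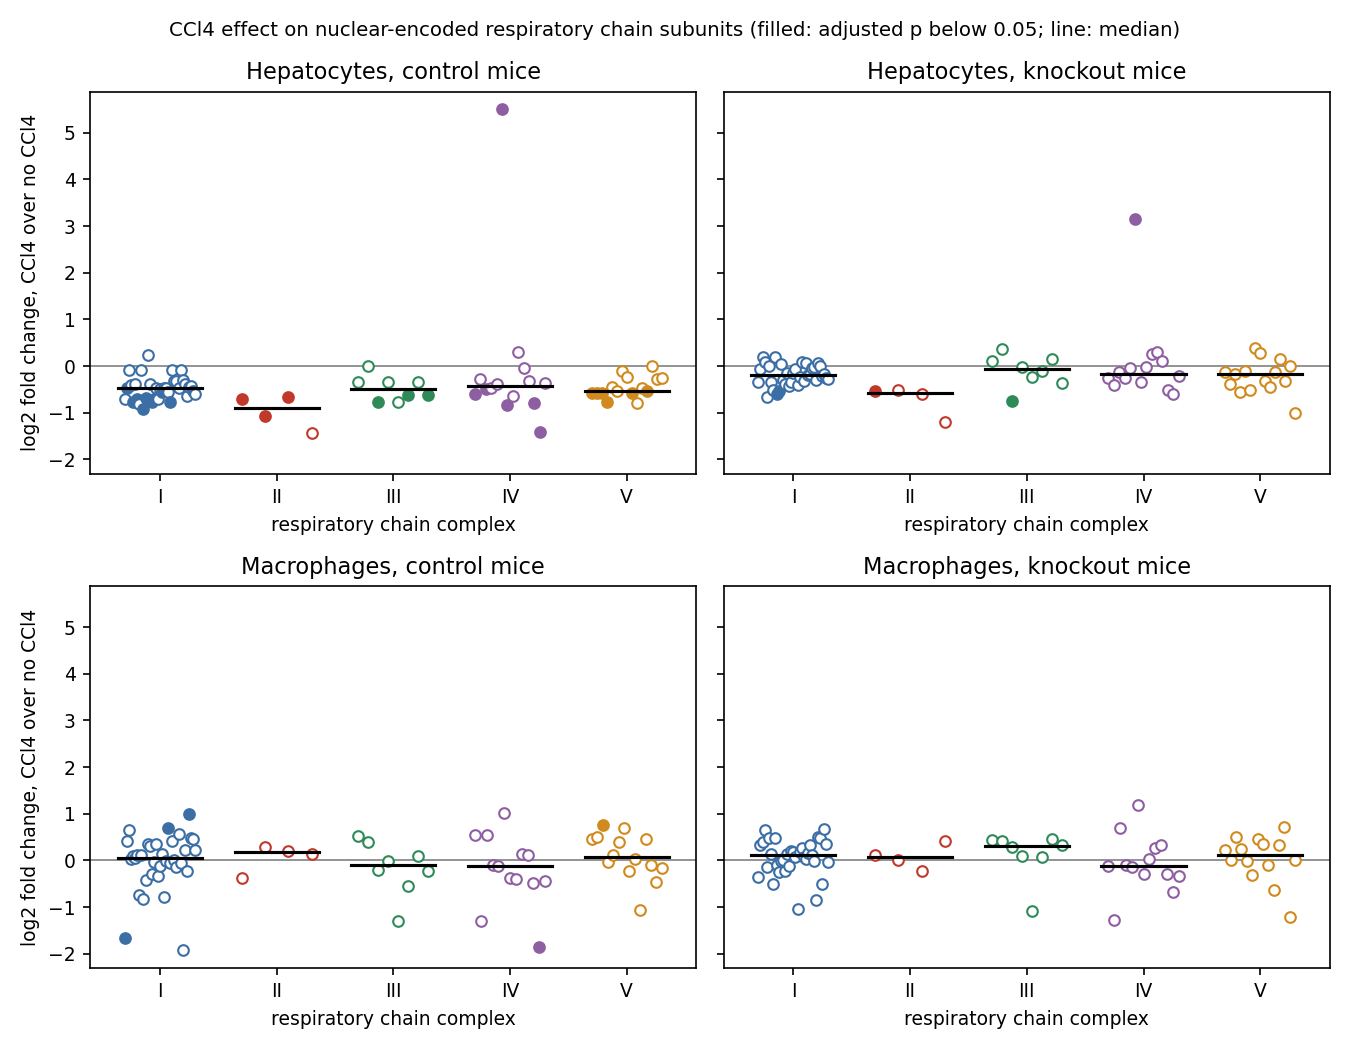
Log2 fold change after CCl4 for each tested subunit gene by complex, in hepatocytes (top) and macrophages (bottom) of control (left) and knockout (right) mice, with filled points at an adjusted p below 0.05 and lines at the median. The control hepatocyte panel has 28 filled points, the knockout hepatocyte panel 5, the control macrophage panel 5 and the knockout macrophage panel none.

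The gene that rose, Cox6b2, codes for the isoform of the intermembrane-space subunit VIb that is known from testis, while Cox6b1 is the general form. Cox6b2 had 1 count in total in the 6 control libraries without CCl4 and 14, 32 and 18 counts in mice 12, 15 and 16 after it, or 2.67, 5.18 and 6.38 CPM. Pooled over libraries the ratio was 82.1, with a 95% counting interval of 14.2 to 3291 that covers counting error only (exact binomial), and edgeR gave an adjusted p of 1.62e-05. Cox6b2 passed the filter on low counts through the CCl4 groups, where it is high, so among tested genes it could only be found higher after CCl4. Without the filter it was called as well. Knockout mice showed the same direction. Their 5 libraries without CCl4 held 4 counts in total and the 4 after it 4, 4, 9 and 19 counts in mice 13, 14, 17 and 18, a ratio of 9.72 (3.48 to 37.6) and an adjusted p of 0.00685 (edgeR). All 7 treated libraries lay above all 11 untreated ones. Cox6b1 did not pass in either genotype (-0.39 in control and -0.05 in knockout mice). Macrophages held Cox6b2 at 0 to 3.75 CPM without and 2.08 to 8.05 CPM after CCl4 in control mice, a table scaled separately. In the 3 treated control hepatocyte libraries the summed Kupffer cell and macrophage markers stood at 367 to 535 CPM, against 11.3 to 198 CPM in the 6 untreated ones and 10106 to 16614 CPM in macrophage libraries of control mice after CCl4. No other gene overlaps the annotated 3′ end of Cox6b2 and no near-identical copy was found.

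No other alternate isoform of complex IV was called. Cox6a1, the general form, was at -0.48 after CCl4 in control hepatocytes and Cox8a at -0.36, neither past the threshold, and Cox6a2 and Cox8b, the heart and muscle forms, held 5 and 0 counts over the 3 treated libraries. Cox4i2, the lung form, had 2 counts over the 6 untreated and 0 over the 3 treated libraries, where Cox4i1 fell. Cox7a2, the liver form, was at -0.04 and Cox7a1, the heart and muscle form, at 0.29, with 49 counts over 6 libraries before and 48 over 3 after.

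**Figure D4:**
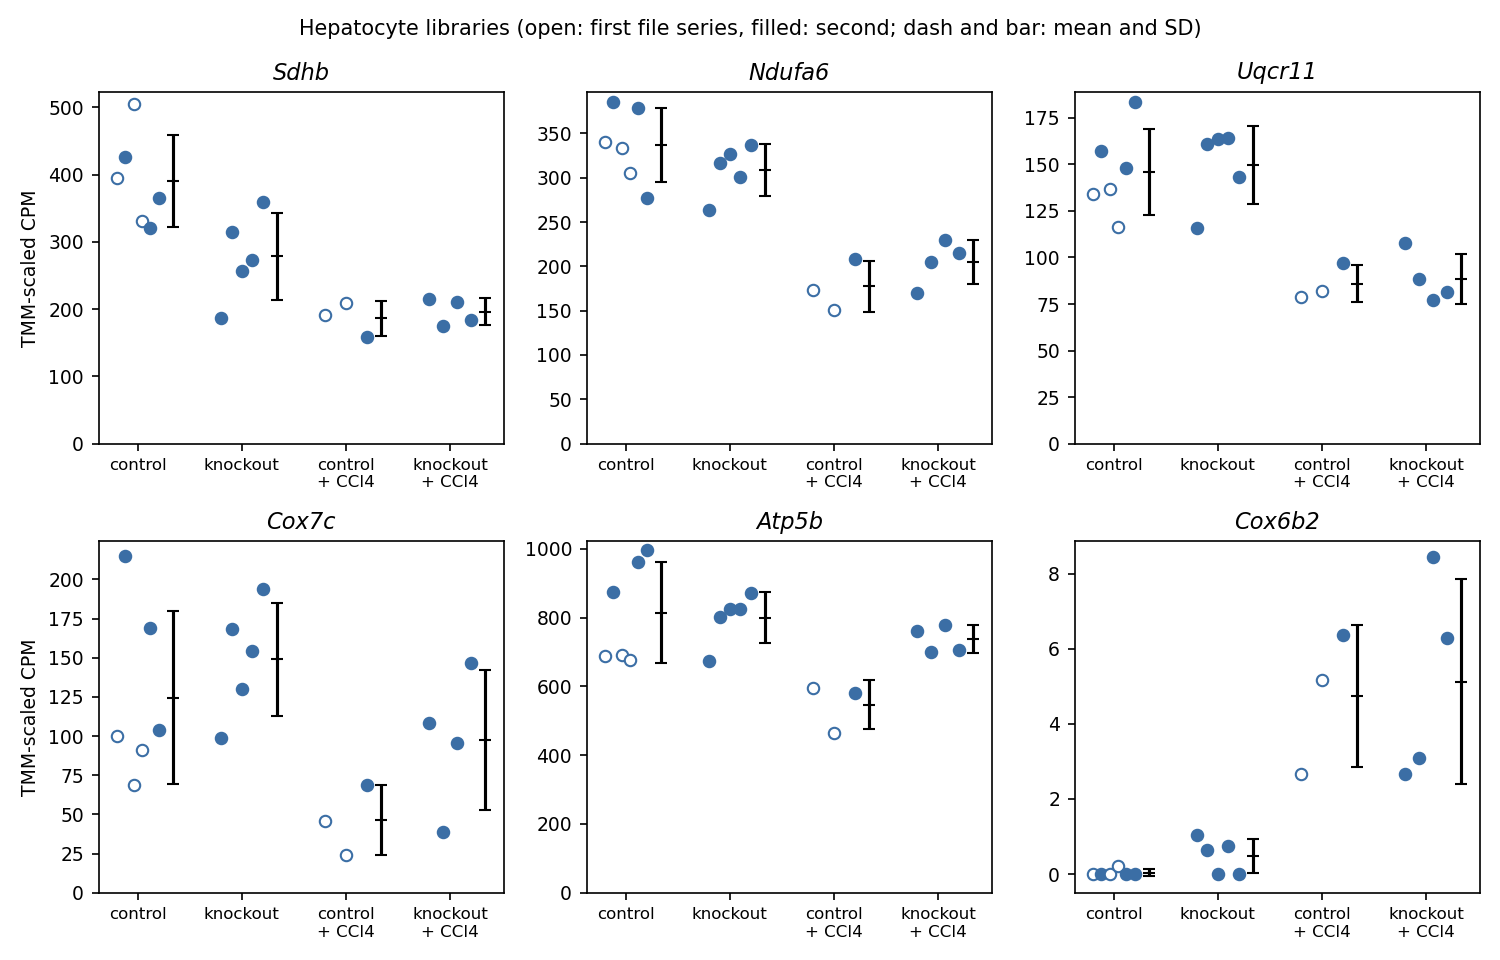
TMM-scaled CPM of 6 subunit genes in every hepatocyte library by genotype and CCl4 on linear axes, with open points for the first file series and a dash and bar for the mean and SD of each group. Sdhb, Ndufa6, Uqcr11, Cox7c and Atp5b are lower in the 3 control libraries after CCl4 than in the 6 without it, and Cox6b2 is above every untreated library in all 7 treated ones.

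Promoter sequence is shown for the gene that rose and for 3 of those with the lowest p among the ones that fell, to set the one beside the others. Sequences are from RefSeq (GRCm38.p6) and run 5′ to 3′ on the gene's strand up to the base before the annotated gene. Capitals mark a match to the ETS core CCGGAAG on either strand, and none of the other motifs searched occurs in these stretches. Sdhb also has an ETS core in the promoter window searched below, outside the stretch printed here.
Cox6b2 (chr7:4753095-4753344, minus strand): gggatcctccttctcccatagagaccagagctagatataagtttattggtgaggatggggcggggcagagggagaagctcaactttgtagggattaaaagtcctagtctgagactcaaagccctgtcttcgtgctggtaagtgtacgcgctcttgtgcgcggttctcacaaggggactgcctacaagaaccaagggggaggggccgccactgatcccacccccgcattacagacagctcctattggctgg
Sdhb (chr4:140961021-140961202, plus strand): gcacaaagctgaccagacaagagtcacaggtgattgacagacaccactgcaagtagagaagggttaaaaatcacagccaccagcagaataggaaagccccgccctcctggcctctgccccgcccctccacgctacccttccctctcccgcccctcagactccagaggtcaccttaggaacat
Ndufa6 (chr15:82354323-82354541, minus strand): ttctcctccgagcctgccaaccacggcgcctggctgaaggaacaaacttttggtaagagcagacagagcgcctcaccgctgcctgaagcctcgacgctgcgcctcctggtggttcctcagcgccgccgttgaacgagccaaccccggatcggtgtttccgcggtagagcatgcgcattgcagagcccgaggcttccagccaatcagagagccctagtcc
Uqcr11 (chr10:80406831-80407071, minus strand): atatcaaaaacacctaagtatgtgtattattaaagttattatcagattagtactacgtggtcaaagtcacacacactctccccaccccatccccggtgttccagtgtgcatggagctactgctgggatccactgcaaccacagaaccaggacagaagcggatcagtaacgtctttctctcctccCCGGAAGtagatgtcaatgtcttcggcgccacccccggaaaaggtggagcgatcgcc

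The table of promoters, each 250 bases before to 50 after a start, matched 62 of the 79 genes by symbol with 67 windows, out of 32851 windows in all. The motifs of 4 factors known from promoters of respiratory genes were searched on both strands: the palindromic core of NRF1, CCGGAAG (ETS factors such as GABPA), AAGATGGCG (YY1) and TCAAGGTCA (ESRRA). The ETS core was in 22.4% of the subunit windows and 8.86% of all windows, the YY1 core in 10.4% and 1.40%, the NRF1 core in 5.97% and 0.971%, and the ESRRA core in 2.99% and 0.423%. Among tested genes with a window, the ETS core was in 5 of the 22 that fell after CCl4 in control hepatocytes and in 10 of the other 39. The YY1 core was in 0 of those 22 and 7 of the 39. A match is a string of letters and does not show binding.

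Genes around the chain were counted from lists of related pathways. In this comparison 13.7% of all tested genes fell and 13.7% rose, and no list was tested against them. In the TCA cycle, 7 of 16 tested genes fell after CCl4 in control hepatocytes and none rose, among them Dlat, a pyruvate dehydrogenase component (-0.88), Suclg2 (-0.99) and Sucla2 (-0.52), which code for succinyl-CoA ligase subunits one step ahead of complex II. Of 11 coenzyme Q synthesis genes, 4 fell and 1 rose, with Coq8a at -2.01 and Coq9 at -0.71. Of 10 glycolysis genes, 3 rose and none fell: Pkm (2.66), Ldha (1.00) and Hk2 (1.89). None of the 13 mitochondrially encoded subunits passed, with a median of -0.40. Among assembly factors, 1 of 15 for complex I fell (Ndufaf6, -0.91), 1 of 9 for complexes II and III (Uqcc3, -0.96), 2 of 20 for complex IV (Cmc1 and Surf1) with 1 that rose (Cmc2), and 1 of 4 for complex V. Among 14 regulators of mitochondrial biogenesis, Ppargc1b fell (-1.78), Pprc1 rose (1.41), and Twnk (-1.07) and Gabpb1 (0.95) passed downward and upward. Markers of other cells rose beside these: 5 of 12 of the Kupffer cell and macrophage list and 5 of 11 tested of the stellate cell and fibroblast list were higher, the latter with summed levels of 12.8 to 453 CPM before and 517 to 1511 CPM after CCl4. Pkm and Hk2 were higher in macrophages than in hepatocytes of control mice after CCl4, by 3.74 and 4.36 on the log2 scale. The part of these other cells in the result was not tested.

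Knockout mice showed a smaller set. In their hepatocytes 4 of 76 subunit genes fell after CCl4 and 1, Cox6b2, rose, where 13.9% of all tested genes passed, 7.02% higher and 6.84% lower, and the median was -0.20 against -0.02 over all genes. With library totals the median of the 76 genes turned to 0.07, and 29 of them were negative in place of 56. Uqcr11 had 116, 161, 164, 164 and 143 CPM in mice 4, 5, 10, 20 and 21 without CCl4 and 108, 88.3, 76.9 and 81.2 CPM in mice 13, 14, 17 and 18 after it. The log2 fold change was -0.76 (SE 0.17, adjusted p = 0.00412, edgeR), and the groups did not overlap. Ndufa6 went from 263, 316, 327, 301 and 337 CPM to 170.3, 204, 229.9 and 215 CPM, without overlap (-0.59, SE 0.15, adjusted p = 0.0137, edgeR). Sdha (-0.54) and Ndufa7 (-0.52) also fell. Sdhb and Sdhc had estimates of -0.51 and -0.60 with an adjusted p of 0.0787 for the former (edgeR). With library totals none of the 4 lower genes passed (-0.25 to -0.48), and Atp5g3, Cox7a2 and Uqcr10 passed upward beside Cox6b2.

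The difference in the CCl4 response between genotypes was tested directly. None of the 76 genes passed (adjusted p, edgeR), where 0.217% of all tested genes did, and 5 had an unadjusted p below 0.05. The estimate was positive, the CCl4 effect being higher in knockout than in control mice, in 69 of 76 genes, with a median of 0.33 against 0.02 over all genes. For Sdhb it was 0.56 (SE 0.27) and for Atp5b 0.45 (SE 0.24). Both treated groups are set against their own untreated group here. Of the first file series, the untreated control group holds 3 of its 6 libraries and the treated control group 2 of its 3. The knockout groups hold none. Mouse 15, whose labels conflict, is among the 3 treated control libraries. The scaling matters here too: the CCl4 medians were -0.48 in control and -0.20 in knockout mice with TMM factors, and -0.07 and 0.07 with library totals. DESeq2 also called 0, and limma voom 0.

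Few subunit genes were called for genotype alone. Without CCl4, 6 of 76 genes were lower in knockout than in control hepatocytes and none higher, where 7.87% of all tested genes passed and 3.23% were lower. They were Atp5k (-0.73, adjusted p = 0.0102, edgeR), Uqcrh (-0.65), Ndufa12 (-1.29), Cox7a2 (-0.51), Uqcrb (-0.56) and Ndufb8 (-0.68), accessory subunits of complexes V, III, I, IV, III and I. Uqcrb was the one of these whose groups did not overlap, with 150.2 to 186 CPM (median 157) in control and 109.9, 120.3, 135, 88.1 and 98.5 CPM in knockout mice. Ndufa12 had 56.2 to 119 CPM (median 88.4) in control and 27.7, 56.7, 47.6, 22.2 and 29.1 CPM in knockout mice. The 3 control libraries of the first file series were its 3 highest, at 95.8 to 119 CPM. With the file series as a term, or in the second series alone, 0 of the 6 passed, and without mouse 2 the calls were 1. With library totals 1 passed, and the median of the 76 genes moved from -0.02 to 0.22, with 17 negative in place of 44. In the same libraries 8 of 12 Kupffer cell and macrophage markers were higher in knockout mice, with summed levels of 132 to 1479 CPM against 11.3 to 198 CPM. Summed biliary markers were at 82.6 to 306 CPM in knockout and 30.1 to 92.1 CPM in control mice. Those of stellate cells and fibroblasts were at 170 to 1286 and 12.8 to 453 CPM. The part of these other cells in the genotype result was not tested. This comparison and that of CCl4 in control mice share the 6 untreated control libraries. After CCl4, none of the 76 genes passed between genotypes (edgeR), where 0.176% of all tested genes passed, 9 had an unadjusted p below 0.05 and DESeq2 called 0.

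File series marked several subunits strongly. In a fit of the hepatocyte libraries with series as a term, 11 of 76 subunit genes passed for series, 9 lower and 2 higher in the first, where 6.68% of all tested genes passed. Ndufa4 was at -1.32 and Atp5j at -1.01, and Ndufb2 at 0.90. Among the 6 untreated control libraries, Sdhd averaged 23.7 CPM in the first series and 135 CPM in the second. Mitochondrially encoded genes took 28.8% to 35.1% of counts in the 5 hepatocyte libraries of the first series and 19.6% to 29.8% in the 13 of the second. Across replicates of 1 group, the coefficient of variation of a subunit gene of at least 10 CPM had a median of 14.5% to 19.985% in the 4 hepatocyte groups and 17.1% to 30.9% in the 4 macrophage groups. Sdhd, Ndufs5 or Cox5a had the highest value in every group, 49.8% to 103%.

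Macrophages gave a mixed picture after CCl4. In control mice 3 of 74 subunit genes rose and 2 fell, where 13.2% of all tested genes passed, 6.77% higher and 6.39% lower, and the median was 0.03 against -0.03 over all genes. Ndufs8, a core subunit with iron-sulfur clusters, had 34.9, 23.1, 45.0 and 43.2 CPM in mice 6, 7, 8 and 9 without CCl4 and 66.9, 64.3, 94.3 and 68.3 CPM in mice 11, 12, 15 and 16 after it (1.00, SE 0.25, adjusted p = 0.0132, edgeR). All 4 treated libraries were above the 4 untreated ones. Atp5d rose from 103, 86.8, 155 and 117 CPM to 192, 212, 171 and 216 CPM without overlap (0.76, SE 0.21, adjusted p = 0.0251, edgeR). Ndufb8 rose by 1.62 times, also without overlap. With library totals 12 rose and 2 fell.

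The 2 genes that fell were less even. Cox7c went from 187, 202, 62.2 and 82.0 CPM to 12.4, 43.6, 56.6 and 35.5 CPM (-1.86, SE 0.43, adjusted p = 0.00853, edgeR). Ndufa1, an accessory subunit of complex I on the X chromosome, went from 305, 334, 101 and 100.1 CPM to 18.6, 86.1, 70.2 and 92.8 CPM (-1.67, SE 0.46, adjusted p = 0.025, edgeR). Untreated mice 6 and 7 were far above mice 8 and 9 in both, and the lowest treated library in both was that of mouse 11, whose labels conflict. With that library moved to the knockout group, neither passed and 2 of the 5 genes were called, both higher, and without mouse 15 the calls were also 2. In the same comparison 5 of 7 monocyte markers rose, 4 of 12 Kupffer cell and macrophage markers fell, and the summed hepatocyte markers went from 16330 to 17974 CPM before to 605 to 17802 CPM after CCl4. Their part in the result was not tested.

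Knockout macrophages showed no called subunit gene after CCl4, where 0.878% of all tested genes passed, with 9 of 74 at an unadjusted p below 0.05 (edgeR) and 0 by DESeq2. Genotype gave none without CCl4, where 0.166% of all genes passed, with 10 at an unadjusted p below 0.05 (edgeR) and 1 by DESeq2, and none after CCl4, where 0.0647% passed, with 1 at an unadjusted p below 0.05 (edgeR) and 0 by DESeq2. The genotype difference in the CCl4 response gave none either, where 0.194% passed, with 2 at an unadjusted p below 0.05 (edgeR) and 1 by DESeq2. Among the knockout libraries after CCl4, those of mice 13 and 14 had 36653 and 33798 CPM of hepatocyte markers and those of mice 17 and 18 had 3706 and 3724 CPM.

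Low-count isoforms were looked at apart because the test leaves them out. Cox6a2 had 0, 0, 1 and 0 counts in macrophages of control mice 6, 7, 8 and 9 and 14, 6, 8 and 4 counts in mice 11, 12, 15 and 16 after CCl4, a pooled ratio of 37.5 (95% counting interval 6.27 to 1528). Every treated library was above every untreated one. Cox4i2 had 0, 0, 1 and 0 and 7, 2, 12 and 1 counts, a ratio of 25.8 (4.17 to 1065). An exact two-sided permutation test of the CPM gave p = 0.0286 for each, the smallest value that 4 against 4 libraries allow, and 0.133 after Benjamini-Hochberg adjustment over the 14 such tests made. In knockout macrophages neither gene separated the groups, with 13 and 9 counts of Cox6a2 without and with CCl4. Between genotypes after CCl4, Cox6a2 had 9 counts in knockout and 32 in control mice, a ratio of 0.385 (0.162 to 0.826). The permutation test gave p = 0.0286 there too, and 0.133 after adjustment. Mouse 11, whose labels conflict, held 14 of those 32 counts, and the permutation tests kept it among the control mice. Without CCl4 Cox6a2 had 13 counts in knockout and 1 in control mice (p = 0.143, permutation test). The 3′ end of Cox6a2 (GRCm38 chromosome 7, 128205435 to 128206387, minus strand) overlaps an exon of Itgad, a leukocyte integrin gene on the opposite strand. How the counting treated strand is not given in the sources used here, so reads of the 2 genes cannot be told apart.

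Between cell types the contrast was broad. In control mice without CCl4, 67 of 76 subunit genes were lower in macrophages than in hepatocytes and 1 was higher, where 62.8% of all tested genes passed, 34.3% higher and 28.5% lower, and the median was -1.36 against 0.14 over all genes (joint fit over 12052 genes of both tables). As a share of counts the 79 genes took 0.7096% to 1.01% of the 4 macrophage libraries and 1.10% to 1.56% of the 6 hepatocyte libraries. The same macrophage libraries held 16330 to 17974 CPM of summed hepatocyte markers, and the hepatocyte libraries 71796 to 106193 CPM. The part of hepatocyte RNA in the macrophage values was not tested. Ndufv1 had the largest negative difference, at 39.2 ± 8.17 CPM in macrophages (SD, n = 4) and 219 ± 47.1 CPM in hepatocytes (SD, n = 6) on the joint scale, a log2 difference of -2.48 (SE 0.22, adjusted p = 4.46e-11, edgeR). Sdhb was at -2.19, Atp5d at -2.09, Ndufa10 at -1.99 and Ndufb9 at -1.85, each without overlap. The gene higher in macrophages was Cox6b2 (3.87, SE 0.95, adjusted p = 0.000581, edgeR), which was at 0 counts in 5 of the 6 hepatocyte libraries. It was low in macrophages too, with 3, 0, 17 and 2 counts in mice 6, 7, 8 and 9, and the groups overlapped. Genes that did not pass included Sdhd, Ndufs5, Cox5a, Cox7c and Ndufa1.

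Knockout mice without CCl4 had 69 of 76 lower and none higher, where 56.5% of all genes passed and 24.4% were lower, with a median of -1.33. After CCl4 the contrast was narrower in control mice: 50 were lower and 1 higher, Cox7a2l (0.81, adjusted p = 0.00867, edgeR), where 46.4% of all genes passed, 24.1% higher and 22.4% lower, and the median was -0.86. With the mouse as a replicate block, on the mice with both cell types, these 51 calls became 40. In knockout mice after CCl4, 65 were lower and none higher, where 50.0% of all genes passed and 23.3% were lower, with a median of -1.17. With library totals alone the control mice after CCl4 kept 12 lower genes and 1 higher, and the knockout mice 42 and 1.

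**Figure D5:**
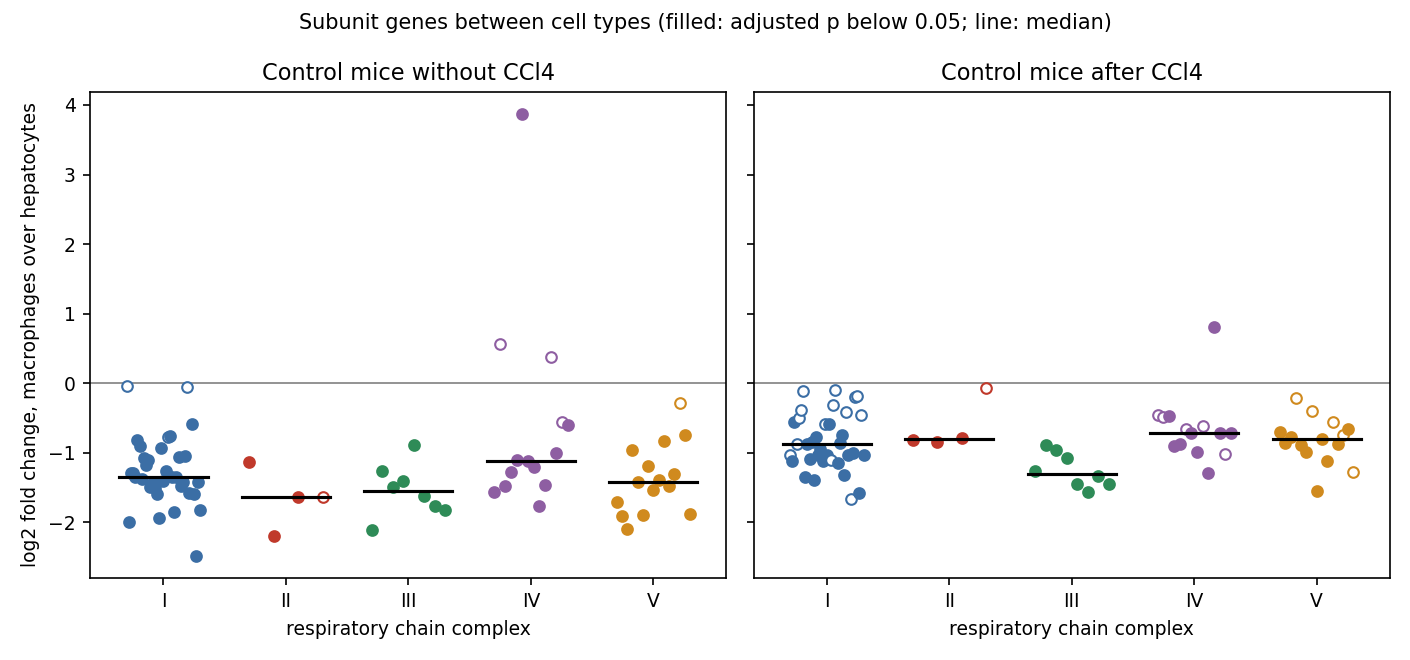
Log2 fold change of each subunit gene in macrophages over hepatocytes by complex in control mice without (left) and after (right) CCl4, with filled points at an adjusted p below 0.05 and lines at the median. Of 76 genes, 68 are filled on the left and 51 on the right, where the median over all complexes rises from -1.36 to -0.86.

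The narrowing was tested as the difference of the CCl4 effects, macrophages minus hepatocytes, in control mice. It was positive and past the threshold in 11 of 76 genes and negative in 1, Cox6b2, where 5% of all tested genes passed, 1.10% positive and 3.90% negative, and the median was 0.43 against -0.20 over all genes. The value of Cox6b2 rests on low counts, with 1 count over the 6 untreated control hepatocyte libraries. Over the alternative runs it ran from -5.61 to -2.80, and it lost the threshold in 3 of 29. The positive genes with the lowest p were Ndufs8 (1.41, SE 0.29, adjusted p = 0.00454, edgeR), Sdhb (1.34, SE 0.28), Atp5d (1.32, SE 0.28) and Cox4i1 (1.11, SE 0.27). Ndufb8, Cox5b, Atp5b, Atp5c1, Ndufv2 and Ndufa10 were among the others. For Sdhb, hepatocytes fell (-1.07) while macrophages were at 0.29 with an adjusted p of 0.365 (edgeR). Ndufs8 and Atp5d rose in macrophages, while in hepatocytes Atp5d fell and Ndufs8 was at -0.44 with an adjusted p of 0.0518 (edgeR). The control hepatocyte libraries after CCl4 had higher summed macrophage markers than those without it, as given above, and control macrophage libraries of mice 15 and 16 after CCl4 had the lowest hepatocyte marker levels, 1116 and 605 CPM. Their part in the result was not tested. With library totals 5 were positive and 1 negative, and with the libraries of conflicting labels left out the calls were 6. With the mouse as a replicate block, which keeps only mice with both cell types, 3 of the 12 passed, all positive, Ndufs8 and Sdhb among them.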

How the data were processed

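The authors deposited raw 3′ end counts per gene (QuantSeq 3′ libraries, single 50-base reads, per the labels' protocols), 1 table per cell type. Trimmomatic 0.39, HISAT2 2.1.0 and the GRCm38/mm10 build are named in the submitters' processing notes, while no source used here gives the counter or how it treated strand. A 3′ tag counts transcript ends and does not see deleted internal exons. From these counts, edgeR 4.0.16 (R 4.3.3; filterByExpr, TMM factors, robust quasi-likelihood test) was fitted to all groups of a cell type, with Benjamini-Hochberg adjustment over all tested genes and a threshold of 0.05. Cell types were compared in 1 joint fit over 22586 shared genes before filtering. DESeq2 1.42.0, limma 3.58.1 voom, other scalings, no filter, file series, the conflicting labels and leaving out each library were alternatives. The rule for named genes took up to 5 called members of lowest p in each direction of a comparison, the paired isoforms and the catalytic or core subunits whatever their values, and up to 3 called genes of lowest p per pathway list. Other genes named were chosen after their values were seen. The members and lists were chosen with earlier results of these data known. The fit was tested on simulated data. The values of 1 member are not reported here. The same mouse number, read from the library titles, occurs in both cell types 15 times and was taken as the same animal. The correlations of deviations between such libraries ran from -0.14 to 0.36, with 8 above 0.1, which does not settle the pairing.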

Additional observations from a re-analysis of the deposited data

Results flagged for a closer look

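The CCl4 effect differed between macrophages and hepatocytes of control mice in 12 subunit genes (edgeR's quasi-likelihood test of the difference itself, Benjamini-Hochberg adjusted), and in 3 of these with the mouse as a replicate block. Among them the difference, macrophages minus hepatocytes on the log2 scale, was 1.41 for Ndufs8, 1.34 for Sdhb, 1.32 for Atp5d, 1.11 for Cox4i1, 1.24 for Ndufb8, 1.00 for Cox5b, 1.00 for Atp5b, 1.06 for Atp5c1, 0.97 for Ndufv2, 0.87 for Ndufa10 and -4.52 for Cox6b2. The last rests on low counts, with 1 count over the 6 untreated control hepatocyte libraries.

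Cox4i2 and Cox6a2, too low for the test, had 22 and 32 counts over the 4 macrophage libraries of control mice after CCl4, against 1 count each over the 4 without it.

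A single library stood apart from the rest of its group in 19 of 273 groups of values examined, where chance alone marks about 1 in 20. In hepatocytes of knockout mice without CCl4 these were Atp5d at 198.8 CPM in mouse 4 (the others 269.99 CPM or more), Cox7b at 350.1 CPM in mouse 10 (the others 478.9 or more) and Uqcrfs1 at 284.4 CPM in mouse 10 (the others 220.6 or less). In control mice without CCl4 they were Atp5g1 at 92.7 CPM in mouse 6 and Atp5g2 at 27.97 CPM in mouse 9, with the others at or below 56.8 and 17.8 CPM. In knockout mice after CCl4 they were Ndufa1 at 47.2 CPM in mouse 14, below the others, and Atp5g3 at 1409 CPM in mouse 17, above them.

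In macrophages of knockout mice without CCl4, Uqcr11 was at 98.3 CPM in mouse 5, Ndufs1 at 72.4 CPM in mouse 4 and Ndufb8 at 89.0 CPM in mouse 21, the first pair high and the last low. In those after CCl4, Ndufb8 was at 205.3 CPM in mouse 18 and Ndufa1 at 94.4 CPM in mouse 13, both high, and complex II took 0.0495% of all counts in mouse 14, against at most 0.0421% in the others. Control macrophages without CCl4 had a low Uqcrb in mouse 7 (78.9 CPM) and a high Cox4i1 in mouse 9 (278.8 CPM). Those after CCl4 had a high Sdhb in mouse 16 (196.6 CPM), a high Ndufs8 (94.3 CPM) and a low Ndufv1 (46.6 CPM) in mouse 15, and a low Cox5a in mouse 11 (8.67 CPM, the others 55.0 CPM or more).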

How the results depend on the processing

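The called genes of lowest p, up to 5 in each direction of a comparison, were followed through the alternative runs, and none turned sign. Many did lose the threshold in some runs. With a library left out they kept it 421 times and lost it 60 times, and in other settings 527 and 64 times. Ndufa7 for CCl4 in knockout hepatocytes kept it in 6 of 21 runs. Uqcrb and Cox7a2 for knockout without CCl4 in hepatocytes kept it in 9 and 10 of 23, and Ndufb8 for CCl4 in control macrophages in 10 of 21. Other named genes were not part of that check. For CCl4 in control hepatocytes 72 of the 76 genes had a negative estimate with TMM factors, and 48 with library totals. Medians over all subunit genes did turn sign in some comparisons. With library totals the median went from -0.20 to 0.07 for CCl4 in knockout hepatocytes, from -0.02 to 0.22 for knockout without CCl4 in hepatocytes and from 0.12 to -0.0039 for the genotype difference in macrophages. In the second file series alone it went from 0.24 to -0.07 for knockout after CCl4 in hepatocytes and from 0.03 to -0.0033 for CCl4 in control macrophages. With a library left out it ran from -0.06 to 0.14 for the latter, from -0.04 to 0.17 for the genotype difference in macrophages, from -0.08 to 0.03 for knockout without CCl4 in hepatocytes and from -0.02 to 0.19 for CCl4 in knockout macrophages. For CCl4 in control hepatocytes, where 28 genes passed, library totals gave 4, no filter 18, the second file series alone 1, and the conflicting libraries left out or moved to knockout 14 each. Leaving out single libraries gave 14 to 39. For knockout without CCl4 in hepatocytes (6) library totals gave 1, no filter 3, the groups of the contrast only 2, file series as a term 0, the second series 0, DESeq2 9, and single libraries left out 1 (without mouse 2) to 7. For CCl4 in knockout hepatocytes (5) no filter gave 2, conflicting labels as knockout 9, and leaving out a library 2 (without mouse 18) to 8. For CCl4 in control macrophages (5) library totals gave 14, no filter 9, DESeq2 8, file series as a term 9, conflicting labels as knockout 2, and leaving out a library 2 to 7. In macrophages, knockout without CCl4 (0) gave 1 with no filter, DESeq2 or the groups of the contrast only, CCl4 in knockout mice (0) gave 1 with no filter, and the genotype difference in the CCl4 response (0) gave 1 with no filter or DESeq2 and 0 to 1 with a library left out. Knockout after CCl4 gave 0 to 1 in hepatocytes and 0 to 0 in macrophages. Macrophages against hepatocytes gave 62 to 69, 64 to 69, 37 to 53 and 57 to 66 with a library left out, and after CCl4 13 in control and 43 in knockout mice with library totals. With the mouse as a replicate block these counts were 68, 69, 40 and 66, against 68, 69, 51 and 65, and the difference of CCl4 effects, a block fit added after seeing the data, gave 3 against 12. The difference of CCl4 effects (12) gave 6 with library totals, no filter, the groups of the contrast only or the conflicting libraries left out or moved, and 5 (without mouse 12 hepatocytes) to 11 with a library left out. The cause was not tested. Depth limits the low-count isoforms, where 3 counts are the floor.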
